A study of Mus musculus with 2 samples.

Results

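The 6 actin genes and 4 tropomyosin genes of the mouse were examined for H3R17me2a, the asymmetric dimethyl mark on an arginine in the tail of histone H3, which is deposited by the arginine methyltransferase Carm1. The members were chosen by name, as all 10 genes listed for the 2 families, out of 21883 protein-coding genes. They comprise the striated muscle actins Actc1 and Acta1, the smooth muscle actins Acta2 and Actg2, the cytoplasmic actins Actb and Actg1, and the tropomyosin genes Tpm1, Tpm2, Tpm3 and Tpm4. For each gene, peaks were counted over its span and the 5000 bp on either side, and the share of the span lying under a peak was measured.

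The series consists of 2 ChIP-seq samples of wild-type heart taken 21 days after birth, and no other genotype, age or control sample was analysed here. The protocol describes sonicated chromatin of frozen heart tissue, precipitated with an antibody to H3R17me2. The labels conflict in part. One field names cardiac fibroblasts where the tissue field names heart, the titles carry the name carm1 beside a wild-type genotype, and the series design speaks of neonatal hearts. Nothing in them ties the samples to different animals. Among marker genes of cell types, a peak present in both lists lay over or within 5000 bp of 8 of 8 cardiomyocyte genes, 0 of 8 fibroblast genes, 3 of 6 smooth muscle, 1 of 8 skeletal muscle, 2 of 8 endothelial and 1 of 6 immune genes, beside 48.7% of all protein-coding genes, so the smooth muscle count was near the general share. The fibroblast genes Col1a1, Dcn and Postn, the smooth muscle gene Myh11 and the skeletal myosin genes Myh1, Myh2 and Myh4 had no such peak, and Actn2, counted among the cardiomyocyte genes, also belongs to a list of actin-associated genes used further on.

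Each sample has its own deposited peak list, a list of the stretches where precipitated fragments pile up above background. The numbers of peaks were 21496 in list 1 and 38012 in list 2. A list 1 peak touching a list 2 peak by 1 bp or more, as 97.1% did, is called a shared peak. List 2 reached to weaker peaks, with a −log10 p down to 2.01, where list 1 stopped at 5.0. The lists matched closely in position and in reads. Over all shared peaks, the point of highest signal (the summit) fell on the same base in 42.3% and within 10 bp in 70.2%. At the 10 genes, 11 of 42 overlapping pairs of peaks had summits on the same base and 25 within 10 bp, both lower shares than over all shared peaks. The reads at the summits of these 25 pairs differed by a median of 1 read. In 24 of the 25 they differed by less than the counting error. The exception was the Actc1 start peak, with 164 reads in list 1 and 202 in list 2. Because of this closeness the lists were counted as 1 sample. Values for the 2 lists therefore show how far a result differed between the lists and carry no replicate error. What made the lists differ was not tested. With 1 sample and 1 condition no test between groups was possible.

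Actins polymerise into the thin filament, on which myosin pulls. Vertebrates carry a separate gene for each of 6 nearly identical actins, of which cardiac and skeletal alpha actin build the sarcomere, alpha and gamma smooth muscle actin serve vessel and gut walls, and beta and gamma cytoplasmic actin form the cytoskeleton of every cell. Tropomyosins are coiled coils that lie along the filament and, with troponin, control the access of myosin in striated muscle. Each tropomyosin gene gives several proteins through alternative splicing and, at some of the genes, alternative promoters, so that a tropomyosin gene cannot be assigned to a single muscle type. Many actin genes are controlled by the serum response factor SRF, which binds a DNA element called the CArG box, and by its cofactors of the myocardin family.

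The promoters of 4 members are shown because they hold the contrast on which the results turn: Actc1 and Actg1 lay under wide peaks, Acta1 had no peak at all, and Tpm4 had only narrow ones. Each is the 250 bases before the transcription start, 5′ to 3′ on the gene's strand, taken from RefSeq (GRCm38.p6, the assembly behind mm10). Capitals mark matches, on either strand, to the motifs searched. These were the CArG box, the MEF2 box bound by muscle transcription factors of that name, the TATA box written TATAAA, the element CATTCC of TEAD factors, and the element GGGCGG of Sp factors.
Actc1 (chr2:114052876-114053125, minus strand): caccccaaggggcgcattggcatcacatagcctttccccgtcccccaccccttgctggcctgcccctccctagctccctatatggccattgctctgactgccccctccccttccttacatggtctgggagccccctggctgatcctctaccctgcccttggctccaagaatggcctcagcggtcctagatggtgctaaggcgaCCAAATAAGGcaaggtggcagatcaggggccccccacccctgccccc
Acta1 (chr8:123894776-123895025, minus strand): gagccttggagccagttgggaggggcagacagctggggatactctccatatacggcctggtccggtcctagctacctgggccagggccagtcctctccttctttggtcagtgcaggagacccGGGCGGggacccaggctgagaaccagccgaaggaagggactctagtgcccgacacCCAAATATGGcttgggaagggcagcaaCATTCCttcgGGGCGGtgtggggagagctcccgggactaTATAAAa
Actg1 (chr11:120348496-120348745, minus strand): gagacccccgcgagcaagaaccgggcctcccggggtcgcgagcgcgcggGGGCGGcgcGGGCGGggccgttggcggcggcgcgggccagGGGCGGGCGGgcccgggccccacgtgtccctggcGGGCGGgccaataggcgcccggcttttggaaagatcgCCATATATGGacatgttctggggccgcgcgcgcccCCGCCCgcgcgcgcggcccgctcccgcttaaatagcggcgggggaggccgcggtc
Tpm4 (chr8:72135038-72135287, plus strand): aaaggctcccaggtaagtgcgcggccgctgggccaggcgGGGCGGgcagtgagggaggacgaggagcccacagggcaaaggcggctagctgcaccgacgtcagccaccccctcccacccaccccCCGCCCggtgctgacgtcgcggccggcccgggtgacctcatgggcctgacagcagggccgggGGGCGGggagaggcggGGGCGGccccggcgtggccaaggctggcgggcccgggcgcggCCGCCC

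Matches to the CArG box were found in the promoters of Actc1, Acta1 and Actg1, whereas 1.39% of 21262 promoters of protein-coding genes held one. It began 47 bases before the start at Actc1, 73 at Acta1 and 90 at Actg1, so the motif stood in a striated promoter under a peak, in a striated promoter without one and in a cytoplasmic promoter under a peak. Actb and Actg2 were not in the promoter table. The CArG box was searched only as CC, 6 A or T, GG, and the MEF2 box only as CTA, 4 A or T, TAG, both without mismatches. In this window the promoters of Acta2 and of the tropomyosin genes held no exact match to the CArG pattern. Elements that differ from either pattern by a base were not searched, so this does not show that these promoters lack CArG-like elements. GGGCGG, found in 42.6% of all promoters, occurred 6 times in Actg1 and 5 times in Tpm4, with overlapping matches counted, and was not found in Actc1. TATAAA (11.6% of promoters) was found in Acta1 alone and CATTCC (11.7%) in Acta1, Acta2 and Tpm1. The exact MEF2 pattern (0.466%) was found in none, which does not show that MEF2-like elements are lacking. Base composition ran from 48.8% G and C with 2 CG dinucleotides in the upstream promoter of Tpm3 to 79.2% with 43 in Actg1, against medians of 55.6% and 10. High CG content did not go with coverage throughout: Tpm4 had 78.8% G and C with 27 CG dinucleotides and no peak over these bases, and Actc1 had 4 and lay wholly under peaks of both lists.

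The 10 genes fell into 3 kinds. Actc1, Tpm1, Actg1 and Actb had at least 25% of the span under peaks of both lists, Acta2, Tpm2 and Tpm4 carried 1 or 2 narrow shared peaks in the span, and Acta1, Actg2 and Tpm3 had no shared peak. In all, a shared peak lay over the span or its flanks in 7 of 10 members, beside 48.7% of all protein-coding genes, and over the span itself in the same 7, beside 43.0%. Taken singly, list 1 had a peak over or near 7 members, beside 49.3% of all genes, and list 2 near 8, beside 59.3%. At least 5 peaks of each list were found at 2 of the 10, Actc1 and Tpm1, beside 3.32%. The share of 25% was reached by 4 of 10 members, beside 1.59% of all protein-coding genes. The median share was 4.76% over the members and 0% over all protein-coding genes.

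**Figure D1:**
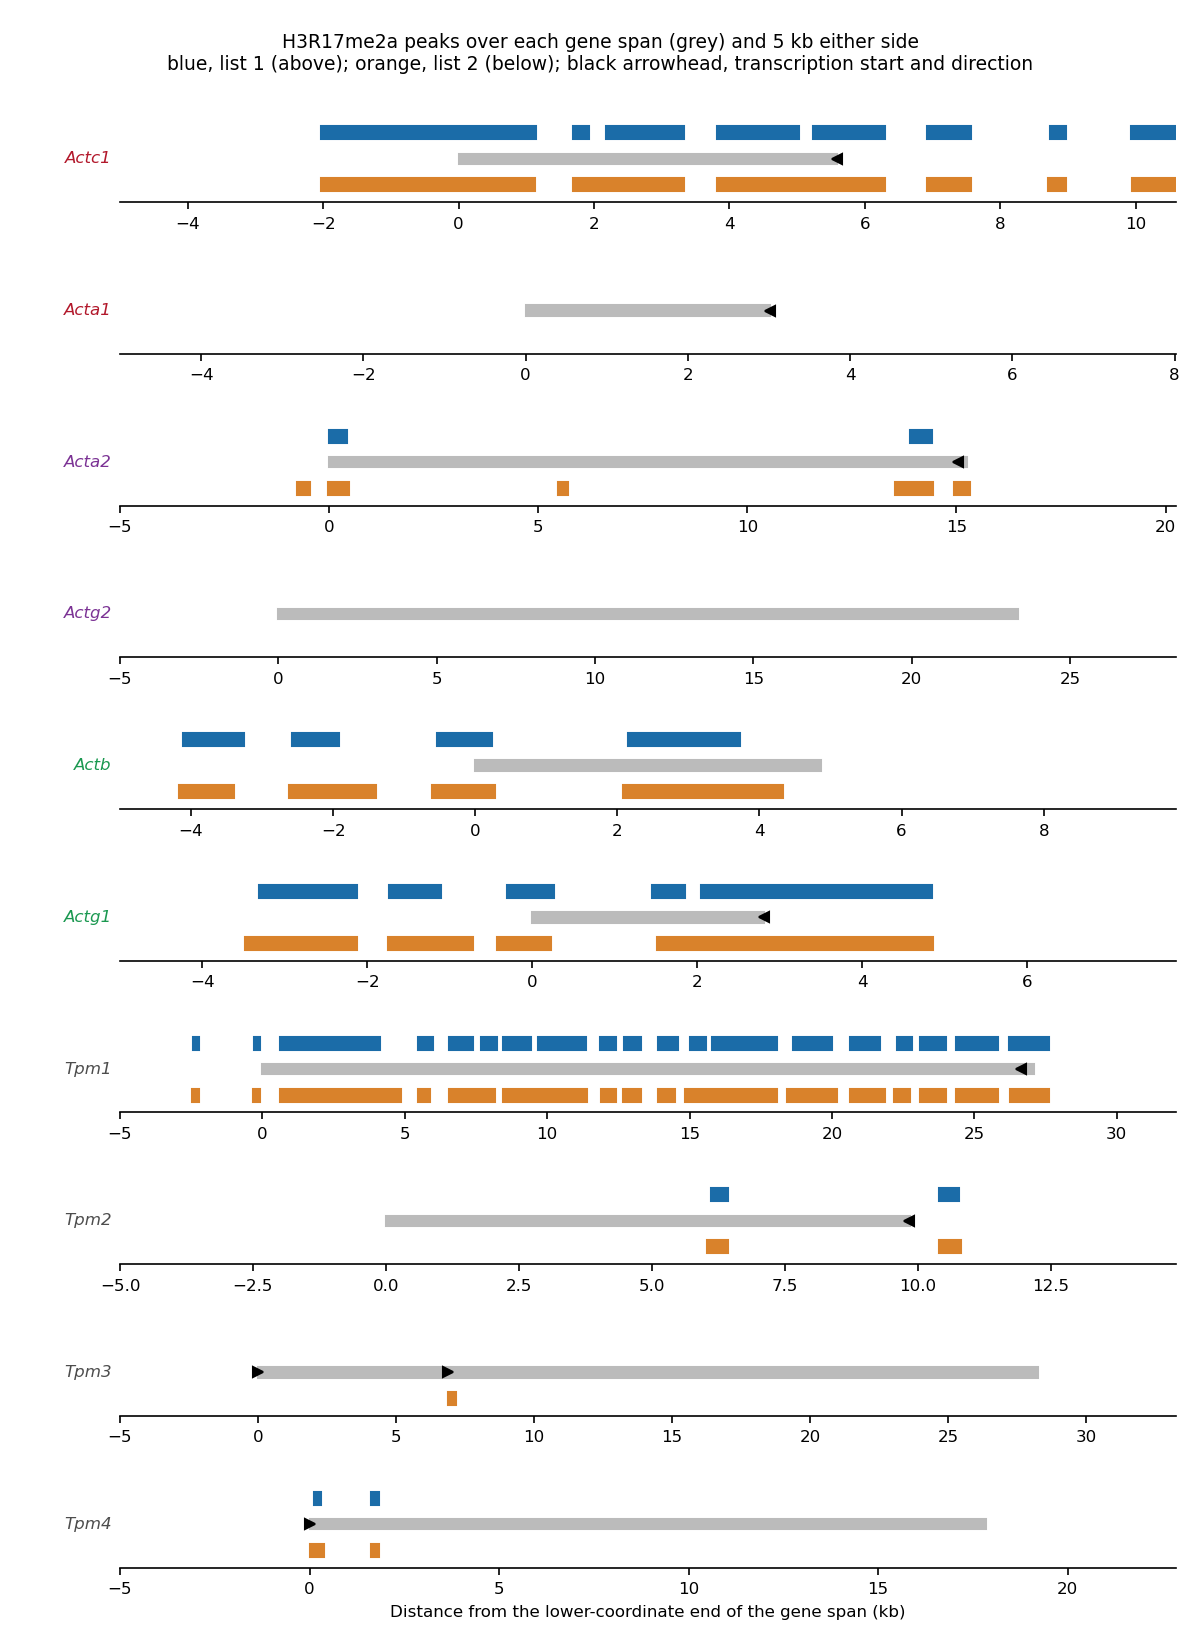
Peaks of list 1 (blue, above) and list 2 (orange, below) over the span of each gene (grey bar) and 5 kb on either side, with distance in kb from the lower-coordinate end of the span and a scale of its own for each gene. Peaks are clipped at the window's edge, and arrowheads mark the transcription starts of the 8 genes that have one in the table. Peaks cover most of Actc1 and Tpm1 and part of Actg1 and Actb, and the Acta1 and Actg2 windows are empty.

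The 2 striated actins lay at opposite extremes. Actc1, cardiac alpha actin and the main actin of the adult heart (mm10 chromosome 2, 114047282 to 114052875), had 8 peaks in list 1 and 6 in list 2 over the span and flanks. Of its 5594 bp span, 73.0% lay under list 1 peaks and 80.9% under list 2 peaks, with 72.6% under both. Only 34 protein-coding genes had a larger share under both. With both lists restricted to a −log10 p of at least 5, the share under both was 48.0% at Actc1 and 44.0% at Tpm1. The largest uncovered stretch within the span was 549 bp in list 1 and 571 bp in list 2. Acta1, skeletal alpha actin, which differs little from cardiac actin in protein sequence and is used by the fetal heart (chromosome 8, 123891758 to 123894775), had no peak in either list. The peak nearest to it was 31833 bp away in list 1 and 31746 bp in list 2. At the depth of these lists no mark was detectable at Acta1.

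The Actc1 peaks were not confined to the gene. A peak of 3173 bp in list 1 and 3156 bp in list 2 straddled the far end of the gene, and its summits lay 6437 and 6440 bp downstream of the start, beyond the 5594 bp span. This peak had the highest fold enrichment of all peaks at the 10 genes, 15.5 in list 1 and 10.1 in list 2. Fold enrichment is the deposited value at the summit, the authors' own, and divides precipitated signal by local background. The peak at the start had a fold of 7.86 in list 1, with its summit 336 bp upstream, and 6.0 in list 2, 340 bp upstream. It held more reads than the peak at the far end, 164 against 63 in list 1 and 202 against 64 in list 2, over a list 1 background of 19.99 against 3.13. Inside the gene the folds were lower, from 2.44 to 3.53 in the 3 internal peaks of list 1. Further peaks lay upstream, where 45.0% of the 5000 bp flank was covered in list 1 and 45.2% in list 2. The lncRNA gene C130080G10Rik begins 1520 bp from the Actc1 span, so the outer peaks cannot be assigned to 1 gene.

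Of the smooth muscle actins, Acta2 was covered over a small part of its span and Actg2 had no peak within 5000 bp. Still, only 8.36% of protein-coding genes had at least the Acta2 share of 6.25% under both lists. Among genes with a shared peak over the span, the median share was 1.87%. Acta2, alpha smooth muscle actin of vessel walls and myofibroblasts (chromosome 19, 34240336 to 34255585), had 2 peaks in list 1 and 5 in list 2, and 6.25% and 12.9% of its span was covered. The stronger of its shared peaks, 533 bp wide in list 1 and 931 bp in list 2, had a fold of 7.34 and 4.66 and a summit 888 and 877 bp downstream of the start. The other shared peak, with folds of 4.67 and 4.13, lay at the gene's far end, where the span of Stambpl1 ends 2 bp away, so it cannot be assigned to 1 gene. A list 2 peak over the transcription start itself had a fold of 2.12 and a −log10 p of 2.26 and had no counterpart in list 1. Actg2, gamma smooth muscle actin of the gut and bladder wall (chromosome 6, 83512909 to 83536251), had no peak in either list within 5000 bp. In a whole-tissue sample, a mark in few cells and a weak mark in many cannot be told apart.

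Both cytoplasmic actins were marked over a large part of the gene. Actg1, gamma cytoplasmic actin (chromosome 11, 120345687 to 120348495), had 5 peaks in list 1 and 4 in list 2, covering 50.7% and 54.4% of its 2809 bp. Its widest peak, 2805 bp in list 1 and 3352 bp in list 2, lay across the start, with summits 409 and 377 bp upstream and folds of 4.08 and 3.67. The lncRNA gene 0610009L18Rik begins 182 bp from the Actg1 span, within this peak. The summits of both lists lie inside that lncRNA gene, so the peak cannot be assigned to 1 gene. Beyond the far end of Actg1, 42.8% of the 5000 bp flank was covered in list 1 and 56.4% in list 2. Actb, beta cytoplasmic actin (chromosome 5, 142903115 to 142907976), had 4 peaks in each list, covering 37.0% and 52.2% of its 4862 bp. Its main peak, 1567 bp in list 1 and 2258 bp in list 2, lay inside the span with folds of 2.72 and 3.59. The other Actb peaks lay toward lower coordinates, where 41.0% and 52.1% of the flank was covered. All of them lie within the lncRNA gene Gm38733, which overlaps the Actb span by 401 bp, so they cannot be assigned to 1 gene. The flank on the other side was bare in both lists.

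At the cytoplasmic actins many reads stood over a high background. The summit of the Actb main peak held 271 reads in list 1 over a background of 99.0, and the Actg1 start peak 320 reads over 77.7. The median list 1 peak held 26 reads over a background of 4.0, and only 1.49% and 2.58% of list 1 peaks had a background as high as these. The part of background in the coverage of Actb and Actg1 was not tested. Among peaks of at least the median fold of each list, no base of Actb or Actg1 was covered by both lists, against 26.4% of Actc1 and 25.2% of Tpm1. List 2 still kept its main Actb peak of 2258 bp and its Actg1 start peak of 3352 bp. The list 1 folds of these peaks, 2.72 and 4.08, lay below the list 1 median of 4.98.

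**Figure D2:**
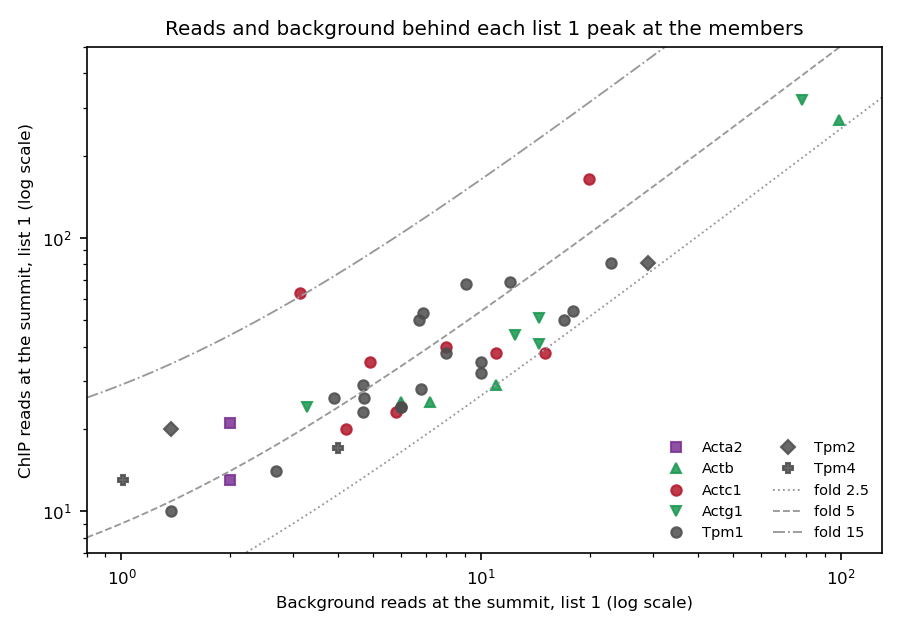
ChIP reads (vertical, log scale) against background reads (horizontal, log scale) at the summit of each of the 42 list 1 peaks at the members, recovered from the deposited fold and p. Grey lines mark equal fold, and colours mark striated (red), smooth (purple) and cytoplasmic (green) actins and tropomyosins (grey). The main peaks of Actb and Actg1 lie farthest right, and the Actc1 peak beyond the far end of the gene lies close to the line of fold 15.

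The comparison of actin forms therefore did not follow muscle against cytoplasm. The median share of the span under both lists was 36.3% for the striated pair, from 0% at Acta1 and 72.6% at Actc1, 3.12% for the smooth muscle pair, from 0% and 6.25%, and 42.3% for the cytoplasmic pair, from 37.0% and 47.7%. The striated range contained both other pairs, and the cytoplasmic values lay above both smooth muscle values. With 2 genes a form these are descriptions without a test. Acta1, with 0 peaks, is 3018 bp long, and Actg1, with 5 peaks in list 1, 2809 bp; the part of gene length in the shares was not tested. Restricted to the 50% of peaks with the higher folds, the medians were 0% (cytoplasmic), 13.2% (striated) and 1.75% (smooth muscle). The main cytoplasmic actin peaks were then kept in list 2 but not in list 1.

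**Figure D3:**
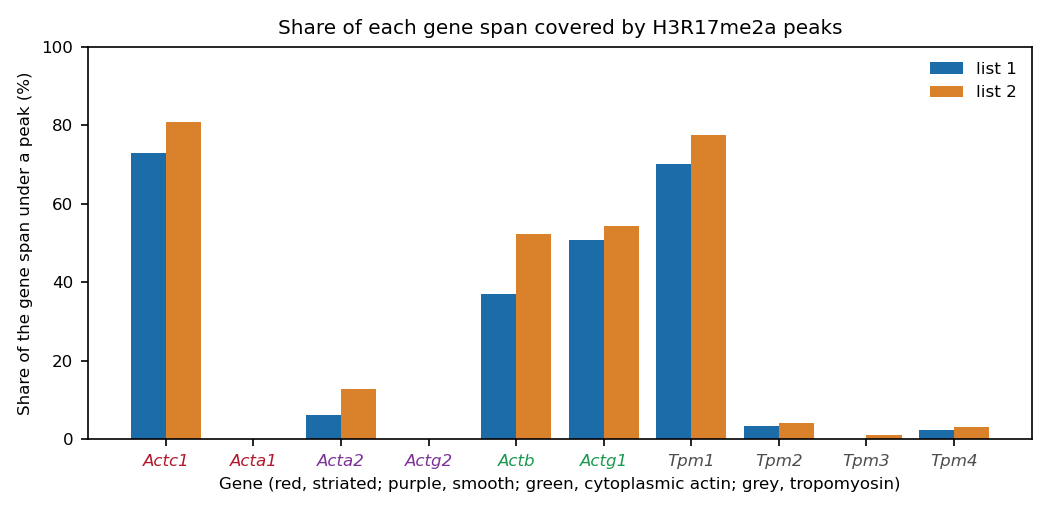
Share of each gene span under a peak, in percent, for list 1 (blue) and list 2 (orange), from single peak lists without replicate error. The bars of Actc1, Actb, Actg1 and Tpm1 reach 37.0% to 80.9%, those of Acta2, Tpm2, Tpm3 and Tpm4 stay at or under 12.9%, and Acta1 and Actg2 have none.

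Tpm1 carried the longest chain of peaks. This gene for alpha tropomyosin, the main tropomyosin of the mouse heart (chromosome 9, 67022590 to 67049672), had 19 peaks in list 1 and 16 in list 2, and 70.1% and 77.5% of its 27083 bp was covered, with 68.6% under both. Only 47 protein-coding genes had a larger share. At least as many peaks were found at 0.251% of protein-coding genes in list 1 and 0.992% in list 2. No uncovered stretch within the span exceeded 1347 bp in list 1 and 671 bp in list 2. The widest peak, 3500 bp and 4264 bp, lay toward the far end, with its summit on the same base in both lists, 23479 bp downstream of the start, and folds of 6.85 and 5.19. Near the start, a peak with its summit 1170 bp downstream had a fold of 6.86 in list 1 and 1173 bp downstream a fold of 4.73 in list 2. The peak on the start itself, 1371 bp and 1368 bp wide, was weaker, with 3.42 and 2.49, over a list 1 background of 23.0. Folds along the gene ran from 2.83 to 6.86 in list 1, so the chain held no single dominant peak. Both flanks were nearly bare, with 8.2% and 10.5% covered in list 1, so the mark ended close to the ends of the gene.

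The other tropomyosin genes were marked at few points. Tpm2, beta tropomyosin of skeletal and smooth muscle (chromosome 4, 43513726 to 43523583), had 2 peaks in each list and 3.28% and 4.11% of its span covered. One lay upstream, with a summit 602 bp before the start in list 1 and 609 bp in list 2 and folds of 8.83 and 5.72. The other lay inside the gene, 3451 and 3437 bp downstream, and was the reverse, with 2.73 in list 1 and 5.23 in list 2. Its reads were alike, 81 and 83, and its list 1 background of 29.0 was above that of most peaks (10.5% were as high). Tpm4, which makes mainly cytoplasmic tropomyosin (chromosome 8, 72135288 to 72153142), had 2 peaks in each list close to its start, with 2.31% and 3.19% of the span covered. The summits lay 251 and 1645 bp downstream of the start in list 1, with folds of 3.6 and 6.97. In list 2 the folds of these peaks were 3.01 and 3.9, and their −log10 p of 3.62 and 4.08 fell below the lowest of list 1, so Tpm4 kept no shared peak once list 2 was restricted to the range of list 1.

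Tpm3, which encodes slow skeletal muscle tropomyosin from an upstream start and cytoplasmic forms from an internal one (chromosome 3, 90072651 to 90100902), had no peak in list 1. List 2 held 1 peak of 281 bp with its summit 74 bp downstream of the internal start at 90079521, a fold of 2.04 and a −log10 p of 3.33, below the level of list 1. The upstream start had none in either list. Tpm1 and Tpm3 are of similar length, 27083 and 28252 bp, and stood at 68.6% and 0% covered by both lists. The median over the 4 tropomyosin genes was 2.79%, the value midway between Tpm2 and Tpm4, and describes neither Tpm1 nor Tpm3.

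**Figure D4:**
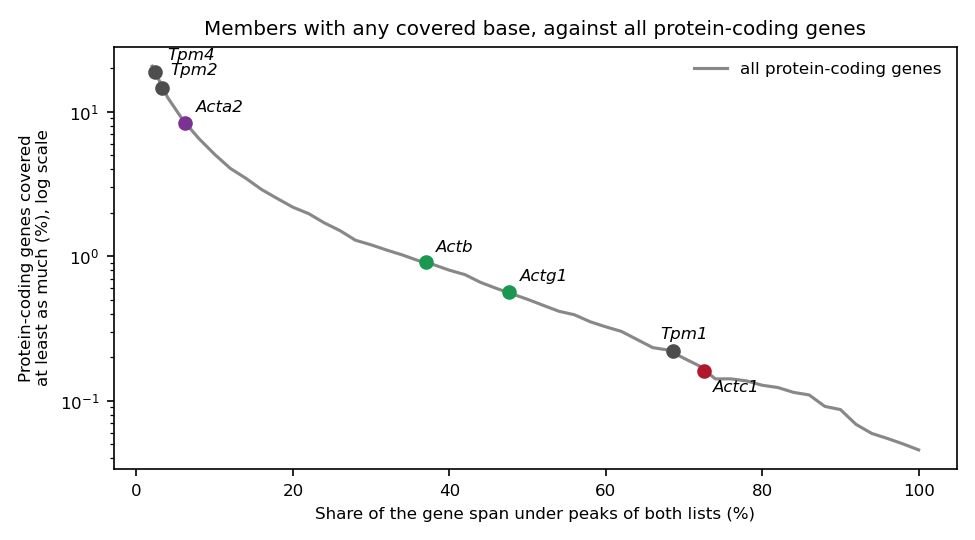
Share of protein-coding genes (vertical, percent, log scale) whose span is covered by both lists at least as much as the value on the horizontal axis (percent). Points mark the 7 members with a covered base, in red (striated), purple (smooth), green (cytoplasmic) and grey (tropomyosin). Actc1, Tpm1, Actg1 and Actb lie where fewer than 1.59% of genes are found.

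Peaks near a start were found in most members with a known start, beside the peaks farther away given above. A shared peak lay within 1000 bp of a transcription start in 6 of the 8 members with a start in the table, beside 40.5% of 17491 protein-coding genes. The exceptions were Acta1 and Tpm3. Among the 6, Actc1, Actg1, Tpm1 and Tpm4 kept such a peak within 500 bp, while at Acta2 and Tpm2 the nearest shared peaks were farther away. The share of all protein-coding genes within 500 bp was not determined, so this split is a description only.

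Wide peaks were found at 4 of the genes. A width of 1000 bp or more was reached by 15 of the 42 list 1 peaks at all members, beside 12.9% in the whole list. In list 2 it was reached by 17 of 40, beside 14.4%. All of these belonged to Actc1, Actb, Actg1 or Tpm1. Peaks of Acta2, Tpm2, Tpm3 and Tpm4 were 203 to 931 bp wide. Reads at the summits ran from 10 to 320 in list 1, with a median of 33.5. In list 2 they ran from 8 to 345, and 10 of the 40 peaks had a q above 0.05, a share not determined for the whole list. A −log10 p under 5 was found in 19 of the 40, beside 51.3% of all list 2 peaks. The fold was higher in list 2 in 6 of the 42 overlapping pairs. These included the main Actb peak (2.72 in list 1 and 3.59 in list 2) and the intragenic Tpm2 peak (2.73 and 5.23), whose summits lay 12 and 14 bp apart. None of the 6 was among the 25 pairs with summits within 10 bp. Pairs at Actc1, Actg1 and Tpm1 had summits 1281, 1600 and 1371 bp apart, so their folds are of different points. Another Tpm1 pair had summits 86 bp apart.

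The genes most like Actc1 in pattern were mixed in function. Likeness was the distance over the width of the widest peak and the share of the span covered, each in both lists, among 10707 other protein-coding genes with peaks in both. The nearest were Gapdh (0.363 SD units), a glycolytic enzyme, Crip2 (0.425), a LIM domain protein, Tpm1 (0.695), and the immediate early transcription factors Fos (0.819) and Atf3 (1.03). Their spans were 69.1%, 70.3%, 68.6%, 72.1% and 68.1% covered by both lists, in that order. Tpm1 differed from the rest in length, since Actc1, Gapdh, Crip2 and Fos are 3385 to 5594 bp long and Atf3 13038 bp. High coverage was also found among the 8 cardiomyocyte marker genes. Their median share under both lists was 44.2%, from 17.8% at Ryr2 to 89.7% at Myh6.

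Genes that act on the filament were often marked, mostly over a small part of the span. Of 52 actin-associated genes, 43 had a shared peak over the span or flanks, beside 48.7% of all protein-coding genes. Their median share covered by both lists was 2.18%, beside 0% over all protein-coding genes. The count was 8 of 10 for genes of filament ends and length, 5 of 7 for cross-linkers, 10 of 13 for turnover, 11 of 12 for nucleators, 5 of 6 for side binders of smooth and non-muscle filaments, and 4 of 4 for SRF and its cofactors. Lmod2, the leiomodin that elongates cardiac thin filaments, was covered to 71.9% by both lists. The widest list 1 peak touching it or its flanks, 14196 bp, was the widest of the genes in this list. That peak is longer than the Lmod2 span (chromosome 6, 24597771 to 24605414), so part of it lies outside the gene. Tmod1, the cap of the pointed end, had 7.18%. Among cross-linkers Actn2, the alpha-actinin of the Z-disc, had 43.8% and Flnc, muscle filamin, 18.2%. The actin monomer binders Pfn1, profilin, and Twf2, twinfilin, had 57.6% and 25.6%. The nucleators Arpc3, a subunit of the Arp2/3 complex, and Fhod3, a formin of the cardiac sarcomere, had 14.3% and 5.99%. Among side binders Tagln2 had 3.7% and Cnn3 1.55%. Srf itself had 18.5% and its cofactor Myocd 9.54%.

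The actin superfamily also holds actin-like and actin-related genes. Of 16 such genes, 6 had a shared peak over the span or flanks, beside 48.7% of all protein-coding genes, and their median share was 0%, as over all protein-coding genes. Among the conventional actins Acta1 and Actg2 were likewise at 0%, and Acta2, at 6.25%, lay close to the highest of this group. The dynactin subunits Actr1b and Actr1a had 5.26% and 2.93% of the span covered by both lists and Actr10, another dynactin subunit, 1.68%. Under both lists no share in this group exceeded that of Actr1b, although 28.8% of Actl10, chosen after its value was seen, lay under list 2 peaks alone.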

How the data were processed

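H3R17me2a ChIP-seq was analysed in 2 samples of 1 group. Per the submitters' processing notes, FastQC, Bowtie2 and the mm10 build were used. Not given in the sources used here are their versions, the peak caller, its control and any filters. Each deposited list has the 10-column narrow peak layout without a header. By the values, the deposited fold is a linear ratio, the deposited p-value and q-value columns hold −log10 values, and the score of the authors equals −log10 p multiplied by 10 and rounded down (in 100% and 99.997% of peaks). These are the authors' values and only describe or filter peaks.

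Gene spans and starts came from RefSeq for GRCm38.p6. Exons were not used, so no peak is called exonic or intronic. Covered share is the part of the span under a peak of each list or of both. Only the autosomes, X and Y were kept, which left out 1 list 1 peak. Coordinates are 1-based. Total depth is unknown. Reads at a summit were recovered by taking the fold as (reads + 1) / (background + 1) and p as the upper Poisson tail. This returned p within 0.001 on the −log10 scale for 99.97% of list 1 peaks and 99.9% of 2000 sampled list 2 peaks, the latter with ChIP reads multiplied by 0.618, a factor found on list 2 alone. List 2 backgrounds are on that scale and are not set against list 1. Interval counting and recovery were tested on simulated data.

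The 10 genes, the lists and the rules were chosen with earlier results of these data known. Named genes are all members, the 2 actin-associated genes per subgroup and 3 actin-related genes with the largest covered share in the list with the lower share, and the 5 genes nearest to Actc1, each value scaled by its SD over genes. All 52 and 16 listed symbols were matched. Python 3.11.15, pandas 2.3.3, numpy 2.4.6 and scipy 1.17.1 were used. Alternatives were stricter thresholds on p, q and fold, a trimmed list 2, other overlaps, flanks and windows, and each list alone. A comparison of protein sequences that had been planned was not made here.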

Additional observations from a re-analysis of the deposited data

How the results depend on the processing

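Acta1 and Actg2 had no covered base under any alternative, and Actc1 and Tpm1 held at least 26.4% and 25.2% in each. Under a −log10 p minimum of 5 or a −log10 q minimum of 2 for both lists, or with only the best list 2 peaks, as many as list 1 holds, 6 members kept a shared peak near the gene, beside 43.0%, 44.1% and 45.4% of all protein-coding genes, Tpm4 having lost its own. The striated median was then 24.0%, since 1 list 2 peak inside Actc1 (−log10 p of 4.09) fell out, and the tropomyosin median 1.64%. Among the 50% of peaks with the higher folds, the members with a shared peak over the span were 4 (Actc1, Acta2, Tpm1 and Tpm4), beside 18.9% of all genes. The medians were then 13.2% (striated), 1.75% (smooth muscle), 0% (cytoplasmic) and 0.588% (tropomyosin). At the cytoplasmic actins list 2 kept its main peaks and list 1 did not. A shared peak near was kept by 27 of 52 actin-associated genes, beside 23.1% of all genes. With either list alone, the members with a peak were 7 to 8 near (49.3 to 59.3% of all genes) and 7 to 8 over the span (43.6 to 53.5%). Those with one at a start were 6 to 7, for which the share of all genes was not determined. The medians were 36.5 to 40.5% (striated), 3.12 to 6.45% (smooth muscle), 43.8 to 53.3% (cytoplasmic) and 2.79 to 3.65% (tropomyosin). The actin-associated and actin-like genes with a peak near were 45 to 46 and 6 to 8. With a 10000 bp flank Actg2 joined the members, for 8 in all, beside 52.2% of all genes. A share under either list in place of both was chosen after seeing the data. For single genes 251 values stayed within 1.5 times and 59 moved further. No paired analysis was possible because all samples form 1 group. Peaks at a few reads, such as those of Tpm4 (11 to 17), limit what depth can show, and a missing peak does not show that the mark is absent.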

Other observations

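Some peaks with many reads lay 5 to 10 kb outside the members. A peak on chromosome 9 9695 bp from Tpm1 (67012660 to 67012894 in list 1), across one end of the lncRNA gene Gm30639, had a fold of 4.38 in list 1 and 13.2 in list 2 from 139 and 126 reads. A peak 7860 bp above Tpm4 had a fold of 1.54 in list 1 and 2.88 in list 2 from 150 and 157 reads. Both had a high list 1 background, 31.0 and 97.0 reads, and in both the fold was higher in list 2, as it was in 30.2% of all overlapping pairs. The peak nearest to Actg2, 5874 bp from its span, lay at an end of Dguok. It had folds of 4.5 and 3.69 from 80 and 82 reads.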
